A study of Mus musculus with 8 samples.

Results

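The genes described here encode the alpha, beta and gamma subunits of heterotrimeric G proteins outside the Gq class, the RGS proteins that act on alpha subunits, and the GPRIN proteins that bind them. They were chosen by gene symbol, with earlier results of these data known. They number 50 of the 20152 genes in the authors' comparison, with 11 alpha, 5 beta, 11 gamma, 20 Rgs and 3 Gprin genes. RNA came from E14.5 mouse embryonic back skin, with 4 libraries labelled mutant, of the GNAQ R183Q genotype, and 4 labelled wild-type control. GNAQ is the alpha subunit of Gq, and R183Q exchanges an arginine next to its GTP. The labels number the replicates without saying that each came from its own embryo, so p-values measure the spread between these samples, which may be technical. They give all 8 one batch, while strain, sex, litter, allele design and the cells that made the changed protein were not stated. Single-library values were not used, so depth per library is unknown and errors are given as intervals computed from each deposited fold change and its p-value.

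A G protein is a switch made of an alpha subunit, which binds GDP or GTP, and a beta-gamma dimer. An activated receptor exchanges GDP for GTP on alpha, and alpha and beta-gamma then act on separate effectors. Alpha subunits of the Gs class stimulate adenylyl cyclase and several, not all, of the Gi class inhibit it, while the G12 class has effectors of its own. RGS proteins end the signal by speeding GTP hydrolysis, mainly on Gi and Gq class subunits.

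Of the 50 genes 45 were not called, and the 5 that were had average levels between 1.89 and 19.2 CPM-equivalents. The 5 calls, at an authors' adjusted p under 0.05, compare with 3.09% of all genes in the table. The genes Gprin2, Gng4, Gng13 and Rgs18 fell and Rgs9 rose in GNAQ R183Q skin, against 2.46% of all genes called lower and 0.63% called higher. At least 2-fold changes were called for 3 of the 50 genes, all falls, against 1.18% of all genes. The median log2 fold change was -0.07 over the 50 genes and 0.01 over all genes tested. Without adjustment, 10 of the genes were lower and 2 higher at p under 0.05, against 8.23% and 5.94% of all genes. The average expression of 8 members lay below 1 CPM-equivalent, read here as 26.8 units of the authors' average expression, and none of these 8 was called. Of the 42 members above that level 5 were called, against 4.08% of all genes above it. A linear model rebuilt from the authors' z-scores, which shares no spread between genes, called 0 of the 50 members and 0 genes in all, with 10 members and 2481 genes at an unadjusted p under 0.05.

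**Figure D1:**
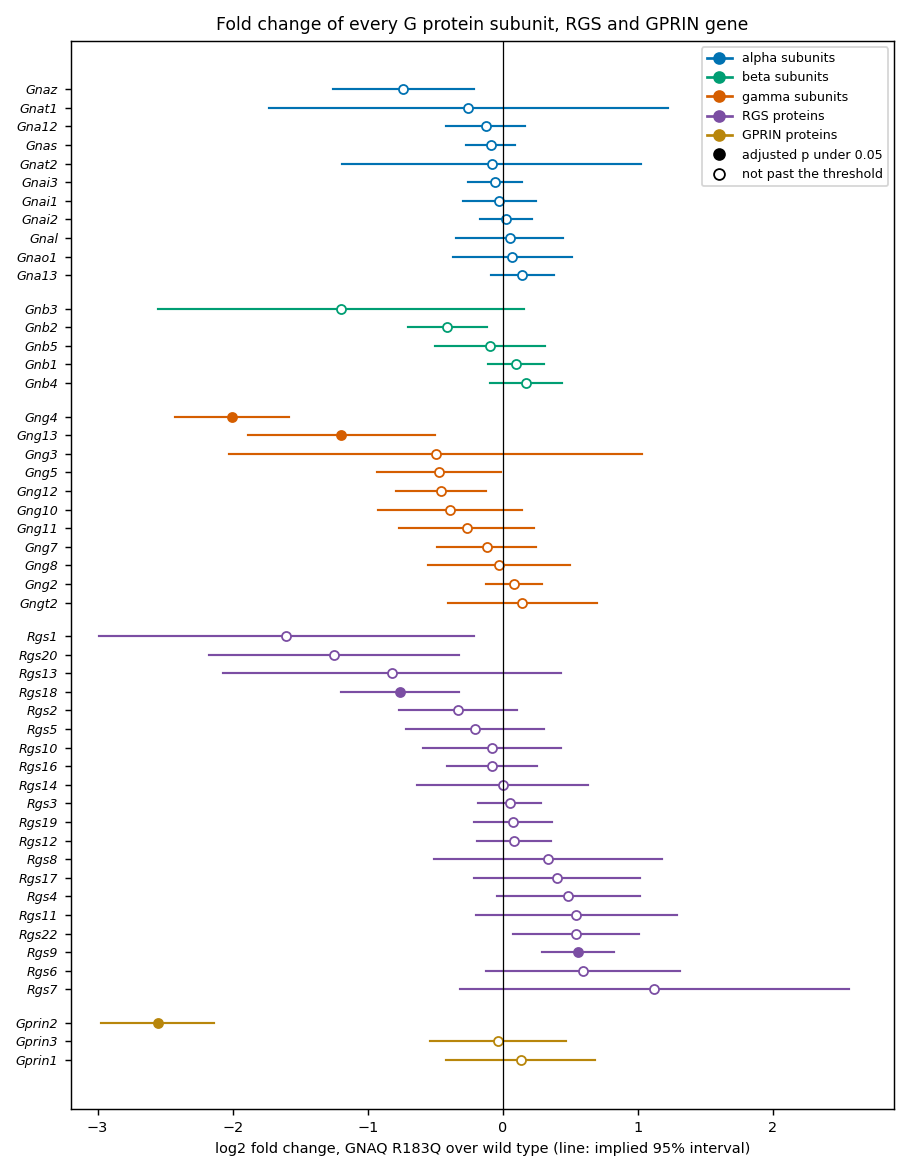
Mutant over wild-type difference (log2) for each of the 50 genes (points) with the implied 95% interval (lines), grouped by role. Filled points passed an authors' adjusted p of 0.05: Gng4, Gng13, Rgs18 and Gprin2 to the left of 0 and Rgs9 to the right.

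The skin itself was checked on marker lists, which bear on every gene below because dissected skin is a mixture. In such samples fewer cells of a type and less RNA per cell cannot be told apart. Markers of basal epidermis, 7 genes, summed to an implied 2027 CPM-equivalents in GNAQ R183Q skin and 2419 in wild-type skin, and 1 of them fell. Suprabasal epidermis markers fell in 9 of 10 cases, with sums of 2647 in GNAQ R183Q skin and 6864 in wild-type skin, and periderm markers in 4 of 6, with sums of 585 in GNAQ R183Q skin and 1239 in wild-type skin. Skeletal muscle markers fell in 3 of 10 cases and mast cell markers in 2 of 7. Mural cell markers, 10 genes, and dermal fibroblast markers, 8 genes, held 1 fall each, and of 10 erythroid and platelet markers 1 rose and 1 fell. Over all genes 2.46% were called lower and 0.63% higher. The 6 lists for endothelium, neurons, Schwann cells, melanocytes, macrophages, and lymphocytes with neutrophils held 0 called genes among 48 by the authors' DESeq2 test. That test called 3.09% of all genes, so 0 of 48 does not show these cell types unchanged. The linear model called 0 genes in all, so its 0 here was fixed in advance. At an unadjusted p under 0.05 those 48 genes held 1 higher and 2 lower by the authors' test and 2 by the linear model. Over all genes the authors' test gave 5.94% higher and 8.23% lower. No measured marker was at 0 in average expression, but neither was any gene of the authors' comparison. This therefore does not show that each cell type was present. The listed markers Elavl3 and Cd3e were not measured. Gnaq, which is no member, had a log2 fold change of 0.09 by the authors' deposited table, and a gene total cannot separate mutant from normal transcripts.

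The alpha subunits carry the position that is changed in the mutant. The set shown here is the coding stretch around the arginine codon that R183Q exchanges in Gnaq, and its match in other genes, in capitals, 5′ to 3′, from GENCODE vM21 transcripts on GRCm38. A script found it in each reading frame as the single arginine followed by valine, lysine, arginine or aspartate, any residue, threonine, then serine, threonine or lysine, and glycine.
Gnaq: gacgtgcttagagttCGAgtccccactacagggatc
Gnas: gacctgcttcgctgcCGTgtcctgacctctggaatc
Gnai2: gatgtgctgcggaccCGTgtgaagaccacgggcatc
Gnai3: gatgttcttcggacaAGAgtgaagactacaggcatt
Gnaz: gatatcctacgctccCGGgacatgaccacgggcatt
Gna13: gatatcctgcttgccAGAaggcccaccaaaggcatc
Of 10 measured alpha genes read this way, 6 use the codon AGA, 3 use CGT and Gnaz alone uses CGG, while Gnaq uses CGA. Gnal, which was also measured, was left out of this search. Over the 36 bases of the stretch the 10 genes share between 18 bases, in Gnaz, and 26 bases with Gnaq. The arginine is at codon 201 of Gnas, codon 179 of Gnai2 and codon 200 of Gna13.

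None of the 11 alpha genes passed the authors' DESeq2 test, against 3.09% of all genes, so the 0 says little about the class. None could be told apart by the linear model's adjusted p, since that model called 0 genes in all. At an unadjusted p under 0.05 each test gave 1, against 14.2% of all genes by the authors' test. The median log2 fold change of the class was -0.06. Levels between genes are compared per kilobase of the longest protein-coding transcript. Gnas, the stimulatory subunit, had the highest average of the class, 281 CPM-equivalents per kilobase, followed by the inhibitory subunits Gnai2 at 137 and Gnai3 at 79.8. Gnas also has transcripts with alternative first exons, so this value is approximate. The implied mean of Gnas was 1075 CPM-equivalents in GNAQ R183Q skin and 1144 in wild-type skin. Its log2 fold change was -0.09 by the authors' deposited table, with a 95% implied interval of -0.27 to 0.09. The antisense gene Gnasas1 was listed separately at 0.42, adjusted p 0.709, by the authors' deposited table. Whether counting used the strand was not given, so reads of the overlapping pair cannot be assigned with certainty.

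Among the better expressed Gi and G12 class genes, Gnai2, Gnai3, Gna12 and Gna13 had intervals that held 0 and lay within 0.5 of it. Gnai2 had a log2 fold change of 0.03 by the authors' deposited table and an implied 95% interval from -0.17 to 0.22. For Gnai3 the authors' deposited table gave -0.06, in an interval from -0.26 to 0.14. Of the G12 class, Gna13 stood at 0.15 and Gna12 at -0.13 by the authors' deposited table, with intervals from -0.09 to 0.38 and from -0.42 to 0.16. In 7 of the 11 alpha genes the whole interval lay within 0.5 on the log2 scale. Gnat1, the rod photoreceptor subunit, had the lowest level of the class at 0.124 CPM-equivalents per kilobase, and its interval ran from -1.73 to 1.22. The remaining alpha genes Gnai1, Gnao1, Gnal and Gnat2 lay between -0.08 and 0.07 by the authors' deposited table.

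Gnaz encodes an inhibitory alpha subunit best known from brain and platelets, and had the smallest p of the class. Its implied mean was 2.30 CPM-equivalents in GNAQ R183Q skin and 3.84 in wild-type skin. Its log2 difference stood at -0.74 by the authors' deposited table, with a 95% implied interval of -1.26 to -0.22, an unadjusted p of 0.00555 and an adjusted p of 0.113. The middle 2 libraries averaged a z-score of -0.401 in GNAQ R183Q skin and 0.564 in wild-type skin, and the outer 2 averaged -1.02 in GNAQ R183Q skin and 0.861 in wild-type skin. These means and medians can occur only if all 4 GNAQ R183Q libraries lay below all 4 wild-type libraries.

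That statement uses the z-scores of log2 CPM, deposited as means and medians within each genotype. It and all later statements on overlap assume z-scores that use the sample SD, which was not stated. With 4 libraries the median is the average of the middle 2, and the mean then fixes the average of the outer 2. Mean z-scores beyond 0.810 either way arise only if the genotypes do not overlap, and 3 members passed that bound, against 2.58% of all genes. Using mean and median together, a criterion chosen after the data were seen, 8 members could not overlap, against 6.39% of all genes. They were the 5 called genes and Gnaz, Gng12 and Rgs22. For the other members overlap was possible but not shown.

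**Figure D2:**
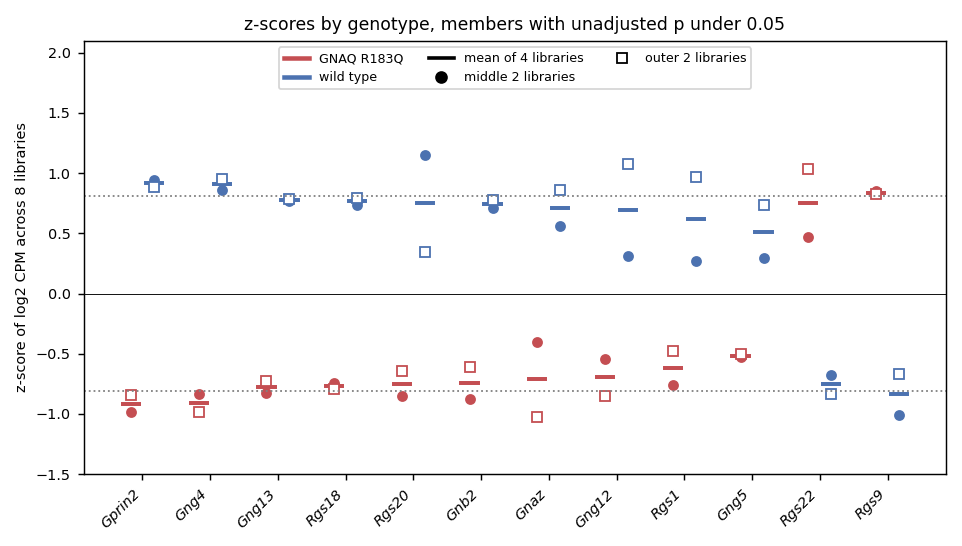
z-scores of log2 CPM across the 8 libraries for the 12 members with an unadjusted p under 0.05, GNAQ R183Q left of wild type. Bars are the mean of 4 libraries, circles the average of the middle 2 and squares the average of the outer 2, and dotted lines mark 0.810, which Gprin2, Gng4 and Rgs9 pass.

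Beta subunits are propeller proteins that carry the gamma chain. None of the 5 genes passed the authors' DESeq2 test, against 3.09% of all genes. None passed the linear model, which called 0 genes in all. At an unadjusted p under 0.05 each test gave 1, against 14.2% of all genes by the authors' test. Gnb1 had the highest level, 106 CPM-equivalents per kilobase, with an implied mean of 345 CPM-equivalents in GNAQ R183Q skin and 323 in wild-type skin. Its log2 fold change was 0.10 by the authors' deposited table, with a 95% implied interval of -0.11 to 0.30. Gnb2, a second widely expressed beta subunit at 92.3 CPM-equivalents per kilobase, had an implied mean of 147 CPM-equivalents in GNAQ R183Q skin and 196 in wild-type skin. The log2 fold change of Gnb2 was -0.41 by the authors' deposited table, with a 95% implied interval of -0.70 to -0.12 and an adjusted p of 0.115. After removal of a trend on transcript length and GC content it was -0.17. Gnb3, known from cone photoreceptors and taste cells, had the lowest level at 0.329 CPM-equivalents per kilobase and a log2 fold change of -1.20 by the authors' deposited table, with an interval from -2.55 to 0.16. Gnb5, the partner of the R7 group of RGS proteins, stood at -0.10 by the authors' deposited table, in an interval from -0.51 to 0.31. Gnb4 stood at 0.17 by the authors' deposited table, in an interval from -0.09 to 0.44.

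Gamma subunits are short lipid-modified chains that hold the beta subunit at the membrane. Of 11 genes 2 fell and 0 rose, against 2.46% of all genes lower and 0.63% higher. Positive log2 fold changes were found for 2 of the 11, against 51% of all genes, and the class median was -0.39. Once the length and GC trend was taken out, 8 were negative and the median was -0.26. The class had a median transcript length of 1643 bases, against 2922 over all genes. Summed over the class, the implied level was 368 CPM-equivalents in GNAQ R183Q skin and 477 in wild-type skin.

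Gng4 encodes a gamma subunit best known from brain, and it fell 4.01-fold by the authors' deposited table. Its implied mean was 4.81 CPM-equivalents in GNAQ R183Q skin and 19.3 in wild-type skin. The middle 2 libraries averaged a z-score of -0.831 in GNAQ R183Q skin and 0.860 in wild-type skin. For the outer 2 the averages were -0.982 in GNAQ R183Q skin and 0.952 in wild-type skin, so the genotypes did not overlap. On the log2 scale the implied 95% interval ran from -2.42 to -1.58, and the adjusted p was 1.80e-17 by the authors' deposited table. By p-value Gng4 ranked 10 among all genes. Its neighbours Lyst and B3galnt2 had log2 fold changes of -0.25 and 0.06 and adjusted p of 0.612 and 0.890 by the authors' deposited table. Neuron markers, 9 genes measured of 10 listed, summed to an implied 61.0 CPM-equivalents in GNAQ R183Q skin and 61.9 in wild-type skin. Stmn2 alone held 35.3 of this in GNAQ R183Q skin and 40.8 in wild-type skin. Of the 9 markers 6 had positive and 3 negative log2 fold changes, against 51% of all genes positive. The part of any cell type in the fall of Gng4 was not tested. The 250 bases before the first start site of Gng4, shown because the gene changed most among the subunits, lie at chr13:13783809-13784058 on the plus strand of GRCm38.p6 in RefSeq, which is not the authors' build mm39.
Gng4: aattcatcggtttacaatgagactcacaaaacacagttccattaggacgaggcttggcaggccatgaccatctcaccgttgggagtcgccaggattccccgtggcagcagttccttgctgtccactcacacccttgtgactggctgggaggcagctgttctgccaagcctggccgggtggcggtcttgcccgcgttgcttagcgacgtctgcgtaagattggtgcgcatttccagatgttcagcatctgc

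Gng13 encodes the gamma subunit of taste receptor cells, and it fell 2.29-fold by the authors' deposited table at a low level. The implied mean was 1.15 CPM-equivalents in GNAQ R183Q skin and 2.63 in wild-type skin. Its middle 2 libraries averaged a z-score of -0.829 in GNAQ R183Q skin and 0.768 in wild-type skin. The outer 2 averaged -0.725 in GNAQ R183Q skin and 0.786 in wild-type skin, and the genotypes did not overlap. Its log2 difference was -1.19 by the authors' deposited table, with a 95% implied interval of -1.89 to -0.50 and an adjusted p of 0.0295. Removal of the length and GC trend ended this call, with a log2 fold change of -0.89 and adjusted p 0.179.

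The abundant gamma genes were not called. Gng12, at 47.5 CPM-equivalents per kilobase the highest of the class, had an implied mean of 170 CPM-equivalents in GNAQ R183Q skin and 233 in wild-type skin. Its log2 fold change was -0.46 by the authors' deposited table, with a 95% implied interval of -0.79 to -0.12 and an adjusted p of 0.131. Removal of the length and GC trend brought Gng12 just past the threshold, at -0.54 with an adjusted p of 0.0496. Gng5, a small widely expressed gamma gene, stood at -0.47 by the authors' deposited table, with an interval from -0.93 to -0.01 and an adjusted p of 0.339. The pseudogene Gng5-ps was listed apart at 0.22 with adjusted p 0.832 by the authors' deposited table, and reads that match both make the value of Gng5 uncertain. Gng2 had a log2 fold change of 0.08 by the authors' deposited table and an interval from -0.13 to 0.29. Gng3 was lowest, at 0.120 CPM-equivalents per kilobase, and its interval ran from -2.03 to 1.03. The remaining gamma genes Gng7, Gng8, Gng10, Gng11 and Gngt2 lay between -0.39 and 0.14 by the authors' deposited table.

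**Figure D3:**
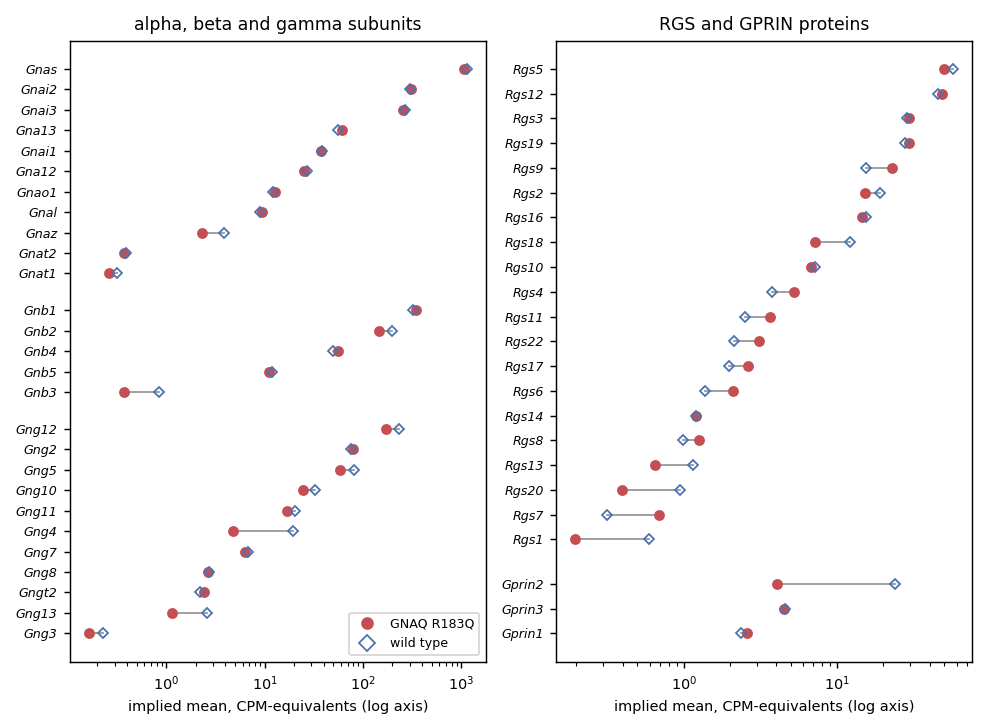
Implied mean level of each gene in CPM-equivalents on a log axis, GNAQ R183Q as filled circles and wild type as open diamonds, computed from the authors' average and fold change. Gprin2 and Gng4 have the widest gaps among genes above 10 CPM-equivalents in wild-type skin.

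RGS genes were measured for 20 members, of which 1 rose and 1 fell, against 0.63% of all genes higher and 2.46% lower. Positive log2 fold changes were found for 11 of the 20, against 51% of all genes, and the median was 0.06. The members are described by subfamily, since the groups differ in the alpha subunits and partners they bind.

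The R7 group pairs with Gnb5 and is known from neurons and photoreceptors, and Rgs9, its member of highest level at 5.53 CPM-equivalents per kilobase, rose 1.47-fold by the authors' deposited table. Its implied mean was 22.8 CPM-equivalents in GNAQ R183Q skin and 15.5 in wild-type skin. The middle 2 libraries averaged a z-score of 0.851 in GNAQ R183Q skin and -1.01 in wild-type skin. For the outer 2 the averages were 0.827 in GNAQ R183Q skin and -0.666 in wild-type skin, so all GNAQ R183Q libraries lay above all wild-type libraries. Expressed as log2, the change was 0.56 by the authors' deposited table, with a 95% implied interval of 0.29 to 0.82 and an adjusted p of 0.00328. Among genes with positive log2 fold changes Rgs9 ranked 28 by p-value.

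The other R7 genes had positive log2 fold changes that did not pass. Rgs6 stood at 0.59, Rgs11 at 0.54 and Rgs7 at 1.12 by the authors' deposited table, with intervals from -0.13 to 1.31, from -0.20 to 1.29 and from -0.32 to 2.56. Rgs7 averaged 0.208 CPM-equivalents per kilobase, the lowest of the group. Over the 4 R7 genes the median was 0.57, and all 4 were positive, against 51% of all genes. The implied sum of the 4 was 29.2 CPM-equivalents in GNAQ R183Q skin and 19.7 in wild-type skin. Rgs9 made up 78.3% of the summed average level, so the sum mostly restates the called gene. The membrane anchors of the group, Rgs7bp and Rgs9bp, had log2 fold changes of -0.24 and 0.24 and adjusted p of 0.419 and 0.667 by the authors' deposited table. The 250 bases before the start of Rgs9, the one member that rose, are shown with the letters TATAAA in capitals, at chr11:109298182-109298431 on the minus strand of GRCm38.p6 in RefSeq.
Rgs9: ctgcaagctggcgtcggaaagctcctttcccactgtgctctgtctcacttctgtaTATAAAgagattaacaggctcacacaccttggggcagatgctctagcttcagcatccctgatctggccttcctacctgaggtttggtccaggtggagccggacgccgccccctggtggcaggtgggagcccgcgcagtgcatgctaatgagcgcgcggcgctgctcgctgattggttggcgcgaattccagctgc

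The R4 group holds small RGS proteins that act on Gi and Gq subunits. Of 9 genes 1 fell and 0 rose, against 2.46% of all genes lower and 0.63% higher. Log2 fold changes were positive for 3 and negative for 6 of them, against 51% of all genes positive, with a median of -0.20. Rgs5, a marker of pericytes, had the highest level at 13.1 CPM-equivalents per kilobase, with an implied mean of 49.8 CPM-equivalents in GNAQ R183Q skin and 57.3 in wild-type skin. Its log2 fold change was -0.20 by the authors' deposited table, with an interval from -0.71 to 0.31. The 10 mural cell markers summed to an implied 568 CPM-equivalents in GNAQ R183Q skin and 508 in wild-type skin, with Acta2 at 172 in GNAQ R183Q skin and 126 in wild-type skin. The 1 called mural marker, the pericyte gene Kcnj8, fell, with a log2 difference of -0.55 and adjusted p 0.00118 by the authors' deposited table. Most of the list went the other way, with 8 of the 10 mural markers positive and 2 negative, against 51% of all genes positive. Rgs2, which prefers Gq class subunits, had a log2 fold change of -0.33 by the authors' deposited table, with an interval from -0.77 to 0.11. Rgs4 stood at 0.49 by the authors' deposited table, in an interval from -0.04 to 1.02, and Rgs16 at -0.08, in an interval from -0.41 to 0.25. Rgs3 and Rgs8 stood at 0.05 and 0.34 by the authors' deposited table, and neither passed.

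Rgs18 is known from platelets, megakaryocytes and other blood cells, and it fell 1.69-fold by the authors' deposited table. The implied mean was 7.14 CPM-equivalents in GNAQ R183Q skin and 12.1 in wild-type skin. Its middle 2 libraries averaged a z-score of -0.739 in GNAQ R183Q skin and 0.735 in wild-type skin. The outer 2 averaged -0.790 in GNAQ R183Q skin and 0.794 in wild-type skin, and the genotypes did not overlap. The size on the log2 scale was -0.76 by the authors' deposited table, with a 95% implied interval of -1.20 to -0.32 and an adjusted p of 0.0277. Removal of the length and GC trend ended this call, at -0.69 with an adjusted p of 0.0585. Of the platelet markers, Pf4 had an implied 9.10 CPM-equivalents in GNAQ R183Q skin and 14.3 in wild-type skin, with a log2 difference of -0.65 and adjusted p 0.143 by the authors' deposited table. Itga2b and Ppbp stood at -0.38 and -0.45 and Gp9 at 0.57 by the authors' deposited table, and none of these 4 passed. The whole list of 10 erythroid and platelet markers, most of whose sum is globin RNA, summed to an implied 3735 CPM-equivalents in GNAQ R183Q skin and 4264 in wild-type skin. The 7 mast cell markers summed to 390 in GNAQ R183Q skin and 608 in wild-type skin, and 2 of them, Tpsb2 and Cma1, fell. The part of these cells in the fall of Rgs18 was not tested.

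Rgs18 lies in a run with Rgs1, Rgs13 and Rgs2 on mouse chromosome 1, with no other tested gene between them in RefSeq genes of GRCm38.p6. All 4 genes had negative log2 fold changes, against 51% of all genes positive, and Rgs18 was the one called. Rgs1 and Rgs13 averaged below 1 CPM-equivalent, where 7 of 8 members were negative. The intervals of Rgs13 and Rgs2 held 0, and a shared change of the run was not tested. Rgs1, known from lymphocytes, was the lowest R4 gene at 0.103 CPM-equivalents per kilobase and stood at -1.60 by the authors' deposited table, with an interval from -2.99 to -0.21 and an adjusted p of 0.252. Rgs13, known from mast cells and B cells, stood at -0.82 by the authors' deposited table, with an interval from -2.07 to 0.43. Pla2g4a, on the far side of Rgs18, had a log2 fold change of 0.15 and adjusted p 0.554 by the authors' deposited table.

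In the RZ and R12 groups 0 of 6 genes passed the authors' DESeq2 test, against 3.09% of all genes. Of these 6, 0 passed the linear model, which called 0 genes in all. By the authors' test 14.2% of all genes had an unadjusted p under 0.05. Rgs20, which acts on the Gnaz product, was the one of the 6 with such a p in either test. Its level was 0.674 CPM-equivalents, with an implied mean of 0.398 in GNAQ R183Q skin and 0.949 in wild-type skin. The log2 fold change of Rgs20 was -1.25 by the authors' deposited table, with a 95% implied interval of -2.18 to -0.33 and an adjusted p of 0.141. Rgs19, the RZ gene of highest level at 18.9 CPM-equivalents per kilobase, stood at 0.07 by the authors' deposited table, in an interval from -0.22 to 0.36. The R12 genes are larger scaffolds apart from Rgs10, and their best expressed member Rgs12 stood at 0.08 by the authors' deposited table, in an interval from -0.19 to 0.35. Rgs10 stood at -0.08 and the RZ gene Rgs17 at 0.40 by the authors' deposited table. Rgs14 had the lowest level of the R12 group, 0.514 CPM-equivalents per kilobase, and an interval from -0.64 to 0.63. Rgs22, placed in none of these groups, had an implied mean of 3.09 CPM-equivalents in GNAQ R183Q skin and 2.12 in wild-type skin. The log2 fold change of Rgs22 was 0.54 by the authors' deposited table, with an interval from 0.08 to 1.01 and an adjusted p of 0.241.

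GPRIN proteins bind active alpha subunits of the Gi class and were named for neurite outgrowth. Gprin2 fell 5.88-fold by the authors' deposited table, the largest change of the 50 genes. The implied mean was 4.08 CPM-equivalents in GNAQ R183Q skin and 24.0 in wild-type skin. Its middle 2 libraries averaged a z-score of -0.987 in GNAQ R183Q skin and 0.946 in wild-type skin. For the outer 2 the averages were -0.844 in GNAQ R183Q skin and 0.885 in wild-type skin, and the genotypes did not overlap. As a log2 change this was -2.56 by the authors' deposited table, with a 95% implied interval of -2.97 to -2.14 and an adjusted p of 7.28e-29. Gprin2 ranked 2 by p-value among all genes.

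The other GPRIN genes were not called. Gprin1, at 0.580 CPM-equivalents per kilobase beside 0.544 for Gprin3, stood at 0.13 by the authors' deposited table, with an interval from -0.42 to 0.68. Gprin3 had a log2 fold change of -0.04 by the authors' deposited table, in an interval from -0.54 to 0.46. Beside Gprin2 on chromosome 14 lie Anxa8 and Syt15. Anxa8, an annexin gene, fell at -0.87 with an adjusted p of 0.00632, and Syt15 stood at 0.37 with adjusted p 0.785 by the authors' deposited table. Suprabasal markers summed to 2647 CPM-equivalents in GNAQ R183Q skin and 6864 in wild-type skin, and their part in the fall of Gprin2 was not tested. The 250 bases before the start of Gprin2 lie at chr14:34201634-34201883 on the minus strand of GRCm38.p6 in RefSeq.
Gprin2: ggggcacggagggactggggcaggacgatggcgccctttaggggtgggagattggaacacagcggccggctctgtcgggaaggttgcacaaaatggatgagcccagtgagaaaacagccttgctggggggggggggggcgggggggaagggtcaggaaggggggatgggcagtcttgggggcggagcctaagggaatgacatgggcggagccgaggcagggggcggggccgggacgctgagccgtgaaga

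Motifs were searched on both strands in the 250 bases before each RefSeq start, with 49 entries for 36 of the 50 genes. Of the called genes 4 had an entry, and Rgs18 had none. The AP-1 letters TGANTCA were in 3 of the 49 entries of these genes, or 6.12%, and in 6.75% of all 32851 entries. The Grainyhead letters AACCNGTT were in 0 of the 49 entries and 1.79% of all. The KLF letters GGGTGTGG were also in 3 of the 49, or 6.12%, and in 3.20% of all. TATAAA was in 8 of the 49, or 16.3%, and in 12.4% of all. The windows of Gprin2 and Gng4 held none of these letters. GC content was 68.0% in the Gprin2 window, and 56.4% and 70.4% in the windows before the first and second Gng4 starts, against a median of 52.4% over all entries.

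**Figure D4:**
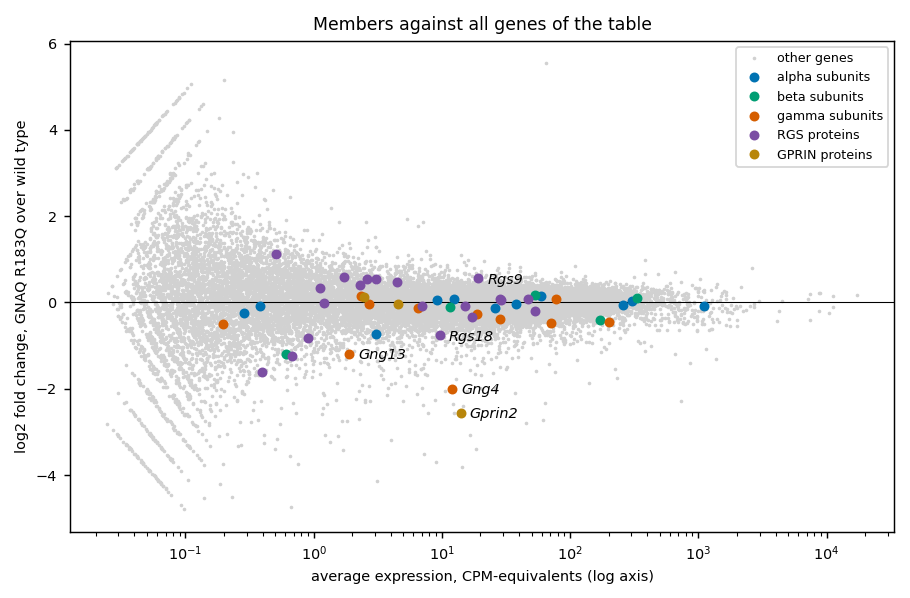
Mutant over wild-type difference (log2) against average expression in CPM-equivalents on a log axis, for all 20152 genes (grey) and the 50 genes by role (colour). Gprin2, Gng4, Gng13, Rgs18 and Rgs9 are named. Gnas and Gnb1, the most abundant alpha and beta genes, sit close to 0, and Gnb2, the next beta gene, sits at -0.41.

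Other genes of the pathway were taken from 8 lists with 102 measured genes. Of these 1 rose and 1 fell, or 1.96%, against 3.09% of all genes, and the median log2 fold change was 0.07. Among 7 receptor kinases and arrestins, which shut receptors off, Grk3 rose. Its log2 fold change was 0.53 by the authors' deposited table, with a 95% implied interval of 0.22 to 0.83 and an adjusted p of 0.0291. Removal of the length and GC trend ended the Grk3 call, at 0.43 with an adjusted p of 0.113. Among 10 measured effectors of beta-gamma, Kcnj3 fell. It encodes a potassium channel subunit opened by beta-gamma, and its implied mean was 3.37 CPM-equivalents in GNAQ R183Q skin and 5.92 in wild-type skin. The log2 fold change of Kcnj3 was -0.81 by the authors' deposited table, with an interval from -1.19 to -0.44 and an adjusted p of 0.00155.

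The other 6 lists held 0 called genes among 85 by the authors' DESeq2 test, against 3.09% of all genes. They held 0 by the linear model, which called 0 genes in all. At an unadjusted p under 0.05 they held 12 higher and 3 lower by the authors' test, against 5.94% and 8.23% of all genes, and 9 by the linear model. The adenylyl cyclases, which make cyclic AMP, had 8 positive log2 fold changes among 10, against 51% of all genes, and the smallest p belonged to Adcy1 at 0.68 with adjusted p 0.0768 by the authors' deposited table. The phosphodiesterases that break it down had 13 positive among 15, against the same 51%, and a median of 0.13, led by Pde4d at 0.30 with adjusted p 0.234 by the authors' deposited table. Cyclic AMP-dependent kinase and Epac genes, 11 in all, had a median of -0.07, and Pkig stood at -0.43 with adjusted p 0.392 by the authors' deposited table. The 13 measured chaperones and other alpha regulators had a median of 0.10. Their smallest p belonged to Gpr158 at 4.44 with adjusted p 0.249 by the authors' deposited table, at a level of 0.0721 CPM-equivalents. The 6 other RGS domain proteins had a median of 0.08, with Akap10 at 0.22 and adjusted p 0.261 by the authors' deposited table. Among 30 receptors the median was -0.03, and F2rl2 led at 1.99 with adjusted p 0.101 by the authors' deposited table, at a level of 0.261 CPM-equivalents.

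**Figure D5:**
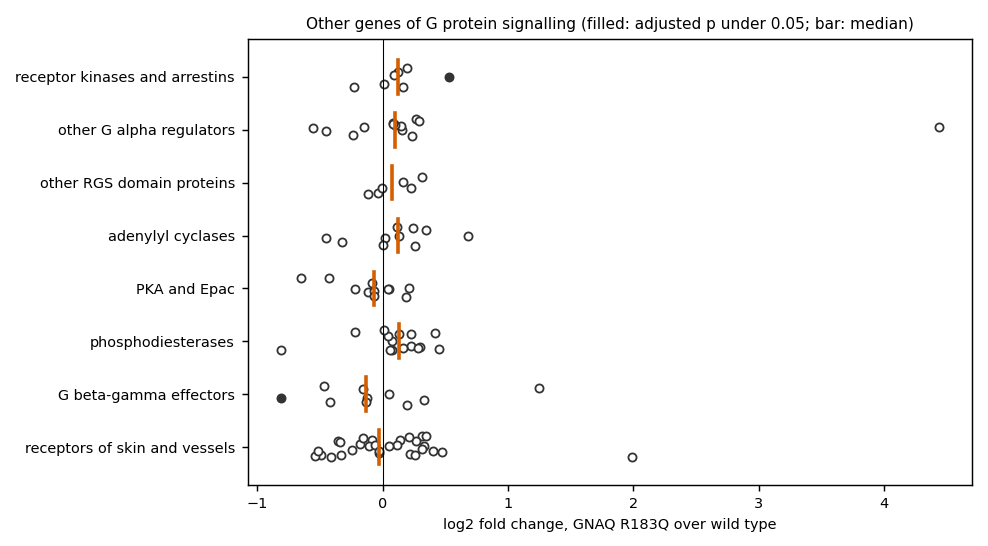
Mutant over wild-type difference (log2) for the 102 measured genes of 8 pathway lists, with 1 point a gene, filled where the authors' adjusted p was under 0.05, and a bar at each list's median. Grk3 and Kcnj3 are the filled points, and the points at 4.44 and 1.99 are the low genes Gpr158 and F2rl2.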

How the data were processed

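RNA from 8 back skin samples was sequenced from stranded TruSeq libraries, per the labels' protocols, and groups came from the sample titles. The deposited file is the authors' table of 20152 genes, made with DESeq2 on mm39, per the submitters' processing notes. Not given in the sources used here: aligner, counter, annotation, strand setting and model. Per the file headers, average expression is the authors' mean signal, and dividing it by 26.8, so that the table sums to 1000000, gave CPM-equivalents. Per the file headers, the authors deposited a log2 fold change (mutant over control) with its p-value, raw and adjusted. Benjamini-Hochberg adjustment of the p-values gave the deposited adjusted values back. The z-score columns are scores of log2 CPM that the authors summarised per genotype, per the file headers.

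The implied standard error is the absolute log2 fold change over the normal quantile of p, and implied genotype means assume equal groups. The linear model from mean z-scores has 6 residual degrees of freedom. The z-scores were taken to use the sample SD. The largest mean was 0.924, under the limit of 0.935 for that SD, but the population SD would allow it too. The linear model and the statements on overlap of the genotypes depend on this choice. No count test was run, since the file holds no counts per library, and the deposited adjusted p decided each call. Length and GC content came from GENCODE vM21 by symbol, for all 50 members and 87.5% of genes, and natural splines were fitted to 13786 genes. Calculations used Python 3.11.15, numpy 2.4.6, scipy 1.17.1, pandas 2.3.3 and patsy 1.0.2, and were tested on simulated data. Members, gene lists and tests were chosen with earlier results of these data known. Named members are those called, those with an unadjusted p under 0.05, and the highest and lowest of each role class by average expression. Of each pathway list, called genes or the gene of smallest p are named, and 1 further list is not reported here. Other members and single marker genes were added after their values were seen. No SD or n stands beside values of the authors' table.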

Additional observations from a re-analysis of the deposited data

How the results depend on the processing

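No paired analysis was possible because the file holds no values per library, and for the same reason no replicate could be left out. The linear model called 0 members, 0 subunit genes, 0 Rgs genes, 0 Gprin genes, 0 pathway genes and 0 genes in all, with smallest adjusted p of 0.0657 among members, and Gprin2, Gng4, Gng13, Rgs18 and Rgs9 lost their calls under it. With the length and GC trend removed 4 members were called, of which 3 (Gprin2, Gng4 and Rgs9) were among the 5, Gng13 and Rgs18 were lost and Gng12 was gained. The Rgs genes then held 1 call and the pathway lists 1, Kcnj3, with Grk3 lost at 0.43 (adjusted p 0.113). Requiring a 2-fold change left 3 members, 0 Rgs genes, 0 pathway genes and 237 genes in all. Separation by mean and median z-scores, chosen after the data were seen, counted 8 members in place of 3. Rgs14, at a log2 fold change near 0, changed sign under the linear model (mean z-score 0.0439), after centring (2.48e-04) and after trend removal (0.178). Of 155 checks of single named members under alternatives, 142 kept direction and side of the threshold, 9 lost a call, 1 gained one and 3 changed sign. Many of these checks could not fail, so the 142 is no measure of stability. The linear model called 0 genes in all and the 2-fold rule can only remove calls, so members not called could gain none there. A threshold of 0.1 could remove no call. The 9 losses all fell on the 5 called members. Leaving out genes under 1 CPM-equivalent or predicted gene models, centring and a threshold of 0.1 moved no count of calls by over 1.5 times. Without counts, no limit from depth can be stated, and wide intervals of genes under 1 CPM-equivalent leave large changes possible.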
